A study of Mus musculus with 158 samples.

Results

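B cell open chromatin was compared with that of liver, kidney and lung in 20 sets of DNase hotspots, 1 set for each of 5 F1 hybrids in each of 4 cell and tissue types. Hotspots of all sets that overlapped by 1 bp or more on the autosomes were merged into 714403 regions. A region that was open in every one of the 5 B cell sets and closed in the 15 other sets is called a B cell region (open meaning that the set had a hotspot there), and 2433 regions, 0.341% of all, met this rule. The reverse, a region with a hotspot in all 15 liver, kidney and lung sets and in no B cell set, is called a solid organ region, and 8329 regions, 1.17% of all, met it. Because the hotspot calls chose both groups of regions, the calls themselves are described below and carry no test.

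The mice were 8 weeks old, from C57BL/6J dams crossed with sires of 5 strains. The paper gives female sex for the marrow donors and for the B6x129 and B6xC3H mice. It does not state the sex of the other mice used for liver, kidney and lung. The hybrids were B6x129, B6xC3H (sire C3H/HeJ), B6xCAST (sire CAST/EiJ), B6xPWK (sire PWK/PhJ) and B6xSPRET (sire SPRET/EiJ), all from inbred strains. Liver, kidney and lung were whole organs, which mix many cell types. B cells came from femoral bone marrow after depletion of cells carrying CD43 or Mac-1/CD11b, so they were enriched by the removal of other cells and not sorted on a B cell marker. The B cell sets pooled 18 DNase-seq samples and 30 libraries (3, 6, 4, 3 and 2 samples in the order of hybrids above), out of 67 samples and 138 libraries. The sets held 114072, 76055, 151020, 130084 and 88838 B cell hotspots in the same order, against 147871 to 286482 in the other sets. Since samples were pooled before hotspots were called, the 5 hybrids served as the repeats.

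DNase I cuts chromatin where nucleosomes are displaced, which happens mostly at promoters, enhancers and insulators, and a hotspot is a stretch where cuts exceed the local background. B lymphocytes form in the marrow under a set of transcription factors in which E proteins and EBF1 turn on the B cell program, PAX5 holds the cells to it, and PU.1, IKAROS family proteins, RUNX1, IRF4, IRF8 and the octamer factors with their coactivator act on many of the same enhancers. Their targets include the chains of the B cell receptor and the kinases and adaptors that carry its signal.

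Some of the places open in B cells alone lay in such genes, most of them in introns. The 200 bp at the centre of 8 B cell regions are shown, each the region nearest to its gene's start, because these genes include the factors and receptor signalling genes around which the results turn. They were picked among 17 such windows, 1 for each gene of 4 lists described below, and hold more motifs than the rest: 7 of the 8 hold one of 11 motifs of B cell factors, against 11 of all 17, and Ikzf3, Spib, Pou2f2, Irf8 and Bank1 also had none in theirs. Sequences are from the RefSeq copy of GRCm38 (mm10), forward strand, 5′ to 3′. Capitals mark matches to any of the 11 motifs (EBF1, PU.1, ETS, ETS-IRF composite, IRF, octamer, PAX5, the E-box CAGCTG, RUNX, MEF2 and NF-kB). The E-box CAGGTG, which E proteins and other factors bind, is not among them and stays in lower case, as in the Ikzf1 and Bcl11a windows, which hold it.

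Pax5, chr4:44716776-44716975: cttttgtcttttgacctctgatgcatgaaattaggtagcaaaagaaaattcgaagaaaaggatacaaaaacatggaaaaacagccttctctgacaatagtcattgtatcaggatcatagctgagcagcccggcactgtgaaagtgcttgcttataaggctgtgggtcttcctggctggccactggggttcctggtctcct
Ebf1, chr11:44661922-44662121: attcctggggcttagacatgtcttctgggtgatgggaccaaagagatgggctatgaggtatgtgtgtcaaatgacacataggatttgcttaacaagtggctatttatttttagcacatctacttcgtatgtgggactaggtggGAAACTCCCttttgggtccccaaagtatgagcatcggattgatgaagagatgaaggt
Ikzf1, chr11:11697467-11697666: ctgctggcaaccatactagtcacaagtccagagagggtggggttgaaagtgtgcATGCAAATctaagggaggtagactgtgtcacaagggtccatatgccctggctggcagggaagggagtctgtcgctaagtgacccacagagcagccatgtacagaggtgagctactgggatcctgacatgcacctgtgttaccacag
Bcl11a, chr11:24116137-24116336: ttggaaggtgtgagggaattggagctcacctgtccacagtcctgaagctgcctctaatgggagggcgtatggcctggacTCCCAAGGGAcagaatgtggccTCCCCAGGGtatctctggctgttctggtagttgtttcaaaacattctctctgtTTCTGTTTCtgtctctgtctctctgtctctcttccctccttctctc
Cd22, chr7:30881454-30881653: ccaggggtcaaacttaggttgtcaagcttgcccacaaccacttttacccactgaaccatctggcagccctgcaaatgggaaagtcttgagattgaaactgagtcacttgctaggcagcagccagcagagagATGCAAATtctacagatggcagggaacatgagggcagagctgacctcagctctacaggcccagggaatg
Cr2, chr1:195178239-195178438: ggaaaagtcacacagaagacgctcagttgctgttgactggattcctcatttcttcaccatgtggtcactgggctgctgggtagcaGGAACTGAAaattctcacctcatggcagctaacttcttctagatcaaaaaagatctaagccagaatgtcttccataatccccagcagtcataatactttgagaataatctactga
Blnk, chr19:40990628-40990827: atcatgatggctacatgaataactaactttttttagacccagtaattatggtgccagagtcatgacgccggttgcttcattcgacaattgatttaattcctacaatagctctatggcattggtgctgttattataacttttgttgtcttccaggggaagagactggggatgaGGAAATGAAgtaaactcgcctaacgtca
Pik3ap1, chr19:41366656-41366855: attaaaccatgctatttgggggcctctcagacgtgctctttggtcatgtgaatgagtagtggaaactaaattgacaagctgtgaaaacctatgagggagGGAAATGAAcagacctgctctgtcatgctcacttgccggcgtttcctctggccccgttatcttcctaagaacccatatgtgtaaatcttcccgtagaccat

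The Pax5 window held no match and lay outside the gene, at -6389 bp from its start (a minus sign means before the start). The Ebf1, Ikzf1, Bcl11a, Blnk and Pik3ap1 windows were intronic, and those of Cd22 and Cr2 lay outside the gene at -1212 and -1623 bp from the start. The capitals are an NF-kB match in Ebf1, an octamer in Ikzf1 and in Cd22, EBF1 matches and an IRF match in Bcl11a, and an ETS-IRF composite in Cr2, Blnk and Pik3ap1. The consensus letters were GGGANTTTC for NF-kB, ATGCAAAT for the octamer, CCCNNGGGA for EBF1, GAAANNGAA for IRF and GGAANNGAA for the composite, searched on both strands, and the composite and IRF letters can overlap. In the central 200 bp of all 714403 regions, 0.804%, 1.37%, 3.08%, 6.49% and 6.71% held these letters in that order. In all, the 4 lists of B cell genes described below had 43 B cell regions at 17 genes, of which 34 were intronic, 1 exonic and 8 outside the gene, and 24 (55.8%) held at least 1 of the 11 motifs in the central 200 bp. That share was 55.1% over all 2433 B cell regions and 34.9% over all regions, so the regions at these genes held motifs about as often as other B cell regions.

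The label was checked at the starts of 3 B cell genes, by the hotspots that overlap the 1 kb on either side of the start. Pax5, Cd79a (which encodes a signalling chain of the B cell receptor) and Ebf1 had a hotspot there in all 5 B cell sets. The rank of a hotspot was given as the percent of its set's hotspots with a lower score (the score is the −log10 FDR, with a ceiling of 100). At Cd79a, the B cell hotspots ranked at 87.6, 94.1, 86.2, 91.4 and 92.2 in the order of hybrids above. All but that of B6xSPRET were at the score ceiling. Hotspots at the ceiling tie, and they were 12.4%, 5.92%, 13.8% and 8.56% of the B6x129, B6xC3H, B6xCAST and B6xPWK sets. These 4 ranks are thus the highest possible, and their differences are not differences in strength. The Cd79a start was also open in 4 lung sets, ranking at 45.0 to 84.8, and in 2 liver sets, at 44.9 and 10.2, but in no kidney set. At Pax5, the B cell hotspots ranked at 87.6, 93.6, 86.2, 91.4 and 88.1, with those of B6x129, B6xCAST and B6xPWK at the ceiling. There the 5 lung sets had hotspots ranking at 37.1 to 80.2, 3 kidney sets at 14.6 to 27.0 and 1 liver set at 43.4. The start of Ebf1 was open in all 20 sets. These starts were thus open in B cells, and none of the 3 starts was closed in all other organs. In a whole organ, strong opening in a few cells and weak opening in many cells cannot be told apart.

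Few of the places open in every B cell set were closed everywhere else. Of 48660 regions with a hotspot in all 5 B cell sets, 27339 (56.2%) had a hotspot in every other set and 2433 (5%) in none. A further 1319 (2.71%) had a hotspot in exactly 1 of the other 15 sets, and in 1008 of these it was a lung set. Regions shared by B cells with lung only numbered 3517 (7.23%), against 391 (0.804%) shared with liver only and 321 (0.66%) with kidney only. All 5 lung sets were open at 473 of the 3517.

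**Figure D1:**
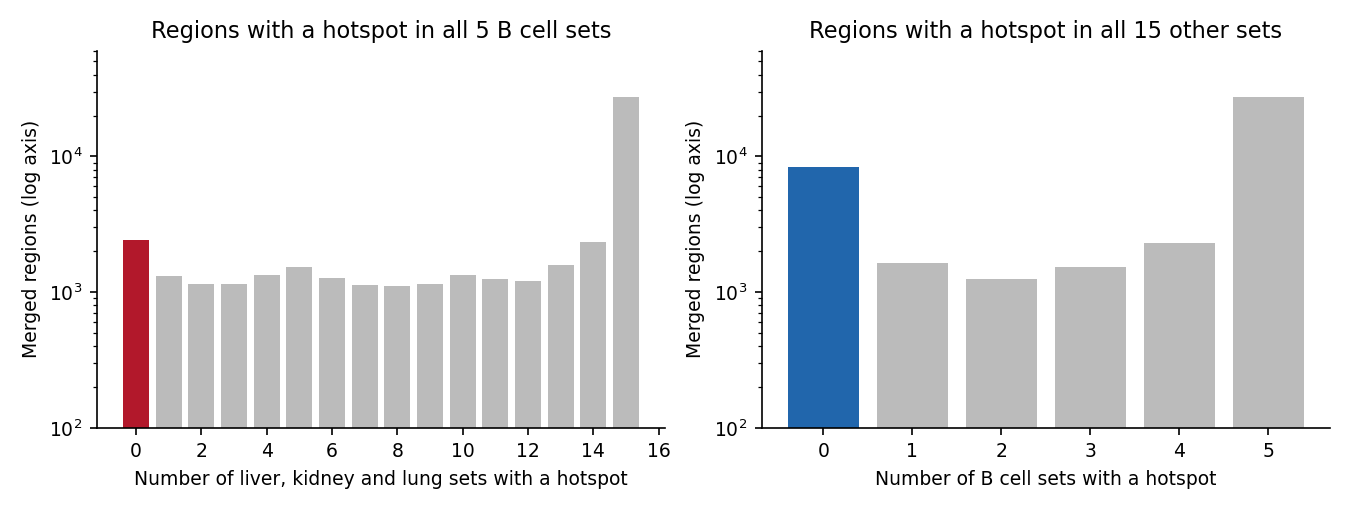
Number of merged regions (log axis) by the number of liver, kidney and lung sets with a hotspot, for regions in all 5 B cell sets (left), and by the number of B cell sets, for regions in all 15 other sets (right). The red bar is the 2433 B cell regions, the blue bar the 8329 solid organ regions, and the tallest bars are the 27339 regions of every set.

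By the same rule, 21898 regions were open in all 5 liver sets alone, 14481 in kidney alone and 10744 in lung alone, so B cells had the fewest. The B cell sets also held fewer hotspots, 112014 on average against 205657 to 232550 in the 3 organs. Just outside the rule, 2974 regions were open in 4 B cell sets and none of the other 15, and in 1616 of them the missing set was B6xSPRET and in 1289 B6xC3H, the sets with the fewest hotspots. Only 29, 5 and 35 lacked B6x129, B6xCAST and B6xPWK. By the paper, B6xSPRET and B6xC3H also had the fewest analysed reads of the B cell sets. The part of depth was not tested.

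The hotspots of B cell regions ranked in the middle of their sets. Their median rank was 58.3, 40.0, 69.7, 64.7 and 39.7 in the order of hybrids above. The ranks were thus lowest in the sets with the fewest hotspots. At most 3.83% of these hotspots were at the score ceiling in any B cell set, against 5.92% to 13.8% of all hotspots of the B cell sets. The lowest of a region's 5 ranks had a median of 31.8 (quartiles 19.1 and 44.0) and reached 80 in 1 region. The places open in B cells alone were therefore not the strongest hotspots of the B cell sets.

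The number of hotspots per set bears on these counts. When each set was cut to its 75000 highest-scoring hotspots, 9486 regions were open in all 5 B cell sets and none of the other 15, and 2151 met the reverse rule. These sets contained 78.2% of the B cell regions. Of the 9486, 20.1% overlapped a B cell region, and 73.5%, 42.6% and 29.4% overlapped a weaker hotspot that the deposited lung, liver and kidney sets held.

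B cell regions lay in and around the genes of B lineage transcription factors. Of 16 such genes, 8 had at least 1 B cell region within the gene or 10 kb on either side, with 23 regions in all, where 7.49% of 20807 autosomal protein-coding genes had one. Ebf1 had 6, Ikzf3 (Aiolos, of the IKAROS family) 5, Pax5, Ikzf1 (IKAROS) and Bcl11a (a zinc finger repressor needed for B cell formation) 3 each, and Spib, Pou2f2 (Oct-2) and Irf8 1 each. Tcf3, Foxo1, Spi1 (PU.1), Pou2af1, Bach2, Irf4, Lef1 and Mef2c had none. With the 75000 highest-scoring hotspots of each set, 14 of the 16 had one, against 22.9% of all genes. These lists and the alternative were chosen with results of these data known, so their counts are descriptions. No allowance was made for gene length, here or for the lists below, and longer genes have more room for a region.

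The 3 B cell regions of Pax5 lay 35947 and 31586 bp into the gene and at -6389 bp from its start (chromosome 4, 44524757 to 44710487, reverse strand). The first ranked at 50.2, 10.6, 45.9, 73.2 and 33.9 in the 5 B cell sets. The second ranked at 59.0, 27.9, 66.4, 71.1 and 63.6 and the third at 55.1, 47.2, 53.4, 71.3 and 36.8. B6xPWK ranked highest at each of them. Counting every region with a hotspot at Pax5 and 10 kb around it, the B cell sets had 29, 15, 47, 32 and 15, and the other 15 sets had 7 to 24. B6xC3H and B6xSPRET B cells overlapped the other organs, and the other B cell sets did not.

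All 6 B cell regions of Ebf1 (chromosome 11, 44617317 to 45008091, forward strand) were intronic, from 44705 to 283907 bp past the start. The one at 158440 bp ranked at 61.7, 51.9, 77.1, 70.3 and 11, and its central 200 bp held an IRF match. The B cell sets had 58, 40, 71, 74 and 42 open regions at Ebf1 and 10 kb around it, and the other sets had 17 to 49, so that B6xC3H and B6xSPRET again lay inside the range of the other organs. Of the 35 regions open in all 5 B cell sets, 6 were in no other set, 11 in lung only and 5 in every set. At Ikzf3 the B cell sets had 29, 15, 30, 26 and 18 open regions against 5 to 16. Only B6xC3H overlapped the other organs there. Its B cell region 2519 bp past the start spanned 1993 bp and ranked at 63.0, 61.5, 76.4, 78.4 and 54.7.

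The B cell region of Pou2f2, an intronic one 66843 bp from the start, ranked above the others at these 16 genes in each of the 5 sets, at 76.5, 64.0, 79.0, 87.2 and 70.0. That of Irf8, outside the gene at 21810 bp past its start, ranked at 49.0, 43.4, 70.5, 75.3 and 41.8. Bcl11a had its 3 regions at 38181, 76722 and 96525 bp past the start, and the last ranked at 48.5, 50.1, 63.6, 62.7 and 0.726, so in B6xSPRET it was among the weakest calls.

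**Figure D2:**
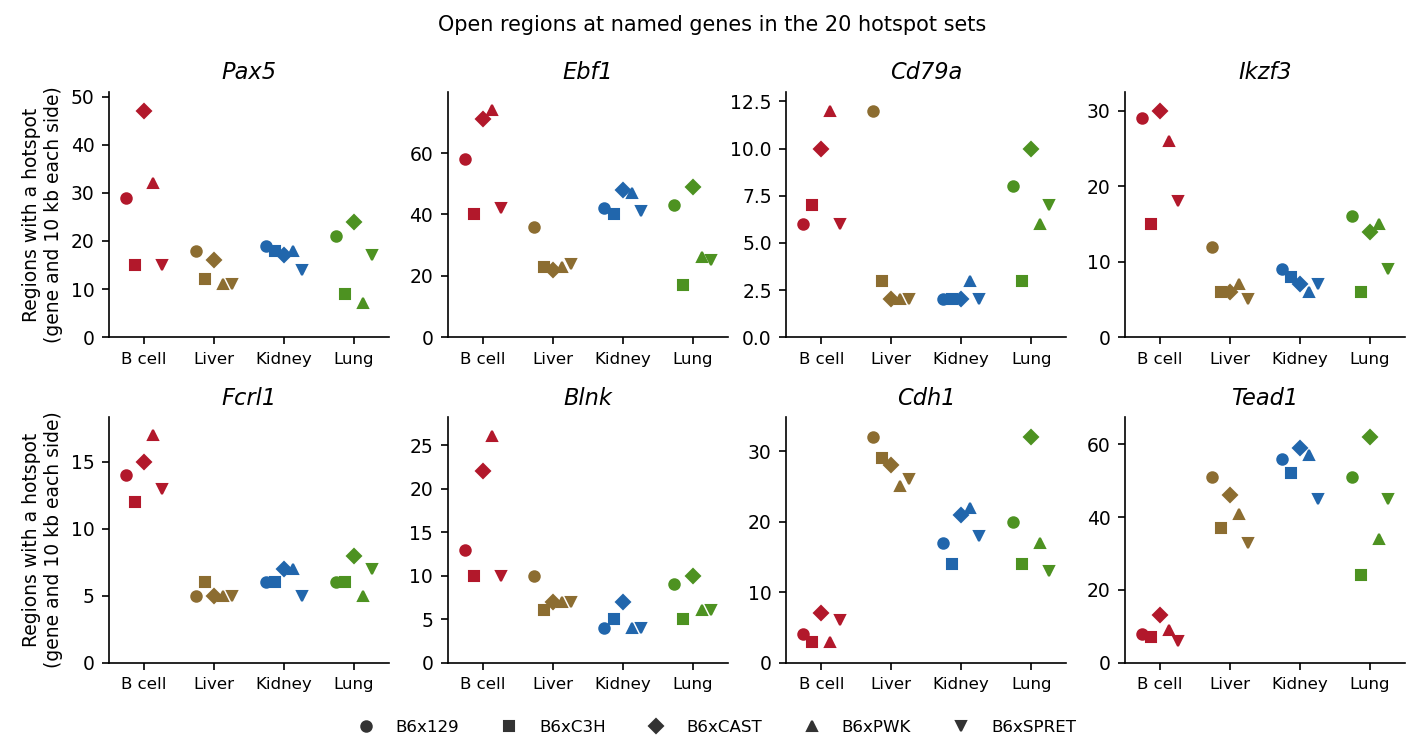
Number of merged regions with a hotspot in each gene and 10 kb on either side, 1 point per hotspot set, coloured by cell or tissue type and shaped by hybrid. The 5 B cell points lie above all others at Fcrl1 (12 to 17 against 5 to 8) and below all others at Cdh1 (3 to 7 against 13 to 32) and Tead1 (6 to 13 against 24 to 62). The B cell sets held fewer hotspots on average (112014 against 216629).

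Genes of the B cell receptor pathway were the other group with many B cell regions. Of 15 signalling genes, 6 (against 7.49% of all genes) had one, 14 regions in all, among them Pik3ap1 (BCAP, which links the receptor to PI3 kinase) with 4, Blnk (the adaptor of SYK) with 3, Blk (a Src family kinase) and Plcg2 (a phospholipase) with 2 each, and Bank1 (an adaptor) with 1. At Blnk the B cell sets had 13, 10, 22, 26 and 10 open regions and the others 4 to 10, so that B6xC3H and B6xSPRET met the top of the other organs. The Blk region at -5471 bp from the start ranked at 71.2, 17.6, 86.2, 86.7 and 40.1, and it was at the score ceiling in B6xCAST. The Pik3ap1 region shown above ranked at 70.0, 53.7, 77.3, 71.9 and 61.7. With 75000 hotspots per set, 14 of the 15 genes had a B cell region, against 22.9% of all genes.

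Surface receptor genes were nearer to the 7.49% of all genes. Of 23, 3 had a B cell region, 6 regions in all: Fcrl1 (an Fc receptor-like protein of B cells) 4, and Cd22 (an inhibitory lectin) and Cr2 (complement receptor 2) 1 each. The 4 regions of Fcrl1 were intronic, in a gene of 26.6 kb, and the B cell sets had 14, 12, 15, 17 and 13 open regions there against 5 to 8 elsewhere, with no overlap. Cd79a had no B cell region, although its start was open in every B cell set, because other sets also had hotspots there. Of the 116 regions at these 23 genes open in all 5 B cell sets, 107 had a hotspot in at least 1 lung set, 89 in a liver set and 67 in a kidney set. With 75000 hotspots per set, 16 of the 23 genes had a B cell region, among them Cd79a with 2, against 22.9% of all genes.

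The pre-B cell receptor and recombination genes had none in 7 genes, and 1 gene with 75000 hotspots per set. The starts of Rag1, Rag2 (the recombinase) and Igll1 (a surrogate light chain) were open in 1 B cell set each, and those of Dntt and Vpreb2 in none. Of 7 germinal centre and plasma cell genes, 2 had a B cell region, among them Prdm1 (BLIMP1) with 1. Of 9 MHC class II genes, Ciita had 1 and H2-Oa had 2.

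Markers of other cells were counted in the same way, again beside 7.49% of all genes. T cell genes had a B cell region at 1 of 15 (Cd8b1), NK cell genes at 1 of 8 (Klrb1c), granulocyte and macrophage genes at 2 of 14 (Itgam and Adgre1), nephron genes at 1 of 9 (Slc12a3), lung genes at 1 of 9 (Scgb1a1), epithelial genes at 1 of 10 (Krt8) and YAP and TEAD pathway genes at 1 of 9 (Lats2). Erythroid (10), megakaryocyte (6), stem and progenitor (8), hepatocyte (10), endothelial (8) and stromal genes (8) had none. When 75000 hotspots were used, 5 of the 15 T cell genes, 4 of the 14 granulocyte and macrophage genes, 3 of the 8 endothelial genes and 2 of the 10 erythroid genes had a B cell region, and 0 to 2 genes of each other such list, beside 22.9% of all genes. The start of Itgam, which encodes CD11b itself, was open in all 5 B cell sets, all 5 lung sets and 3 liver sets, while those of Mpo, Elane and Ly6g were open in no B cell set. The part of remaining myeloid cells in the B cell sets was not tested. None of 10 hepatocyte starts was open in any B cell set, while all 10 were open in all 5 liver sets. The surface receptor starts were open in all 5 sets at 22 of 23 genes in B cells, 19 in lung and 9 each in liver and kidney, and the part of lymphocytes within the lung was not tested.

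**Figure D3:**
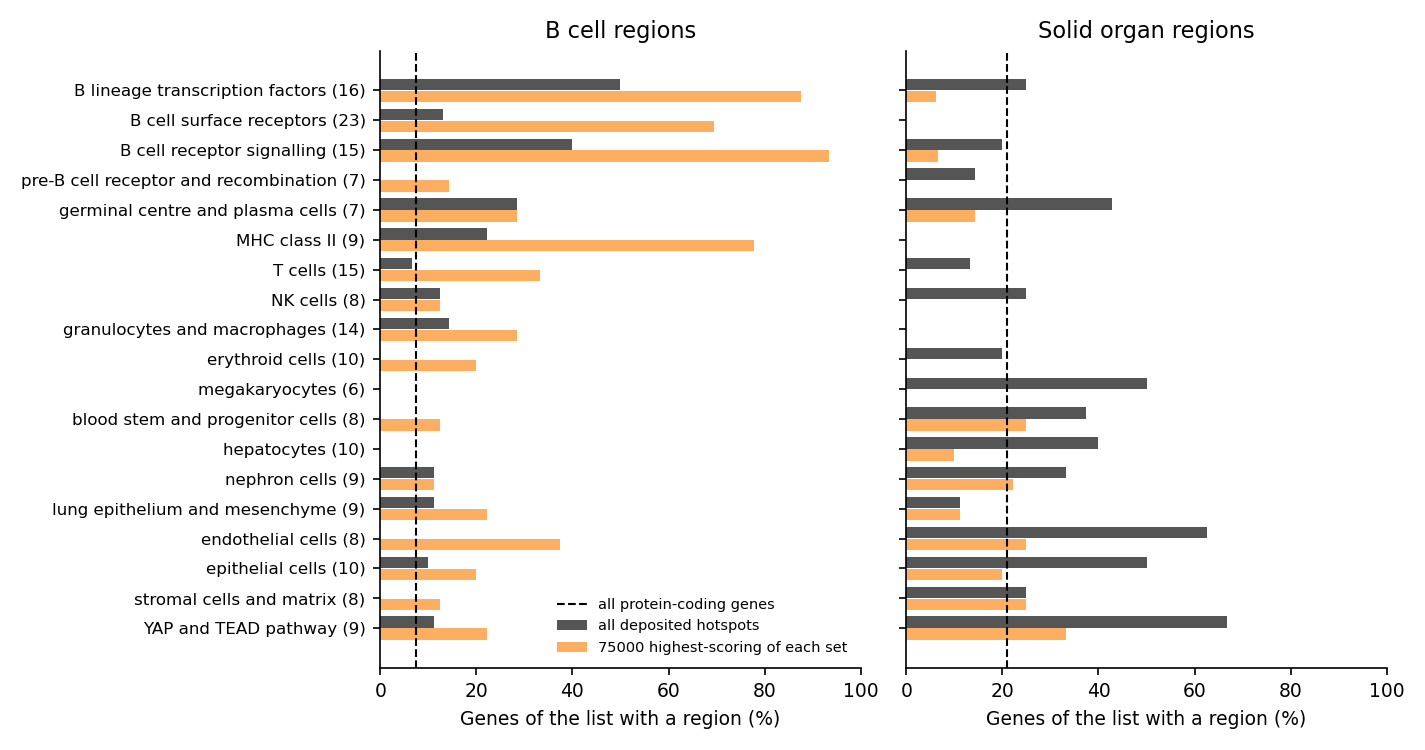
Percent of the genes of each list (number of genes in brackets) with at least 1 B cell region (left) or solid organ region (right) in the gene or 10 kb on either side. Grey bars use all deposited hotspots and orange bars the 75000 highest-scoring of each set, and the dashed lines at 7.49% and 21.0% are all protein-coding genes with all hotspots. Transcription factors and B cell receptor signalling have the longest grey bars on the left (8 of 16 and 6 of 15).

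Ranked by the number of B cell regions over all protein-coding genes, the first 12 were Gm20388 with 12, Foxp1 with 11, Fgfr2 with 7, Ebf1, Gm20696 and Lpp with 6, and Arid1b, Ets1, Fchsd2, Foxn3, Ikzf3 and Maml2 with 5. The annotated models of Gm20388 and Fgfr2 span 4435 and 2961 kb, and Gm20696 overlaps Foxp1. Foxp1, a forkhead factor needed for early B cell development, had 11 B cell and 5 solid organ regions over 597 kb. Ets1, an ETS factor of lymphocytes, had 5 and 0 over 122 kb. Ebf1 and Ikzf3 also had no solid organ region, whereas Foxn3, a forkhead repressor, had 6, and Lpp, a LIM protein of cell adhesions, and Arid1b, a subunit of the SWI/SNF remodeller, had 5 each. Fchsd2, an endocytic adaptor, had 1 and Maml2, a Notch coactivator, had 2. Of the 1559 genes with a B cell region, 1263 had 1 and 207 had 2.

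B cell regions seldom lay at gene starts. The centre of 20 (0.822%) was within 1 kb of the start of a protein-coding gene, against 2.95% of all regions, 4.69% of solid organ regions and 30.6% of regions open in every set. Regions open in liver, kidney or lung alone had shares of 0.927%, 1.0% and 1.06%. The 20 regions were at 19 genes, 0.0913% of genes. The 12 genes whose lowest rank was highest were Prg3 (58.3, a granule protein of eosinophils), Gnb3 (57.9, a G protein subunit), Sapcd1 (55.3), Mrps24 (50.4, of the mitochondrial ribosome), Cfap73 (45.3), Il9r (38.8, the interleukin 9 receptor), Mad2l1bp (31.6), Drd5 (27.6), Folr2 (26.7), Plekhb1 (24.1), Epha2 (17.8) and Phf11b (17.7). Prg3 had its region 40 bp before the start (chromosome 2, 84987927 to 84988422), with scores of 45.6, 13.5, 71.6, 16.8 and 8.65. Il9r had 4 B cell regions in and around 12.7 kb, 2 of them at its start, and Snrnp25 next to it shared 4. None of the 12 belongs to the lists of B cell genes.

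Windows of 500 kb showed where B cell regions lay close together. Of 4810 windows with any region, 1403 held a B cell region, with a median of 1 in those, and 97 held 4 or more. The window with the most, 11, was that of Foxp1 on chromosome 6 (99000001 to 99500000). It was followed by 10 on chromosome 17 around Cdkn1a, Pim1 and Cpne5, and by 9 on chromosome 6 (69500001 to 70000000) within the immunoglobulin kappa locus, which holds no protein-coding gene in this annotation. Windows at Ebf1 and Rnf145 and at Fchsd2 and P2ry2 held 8. Those at Ikzf1, at Blnk and Entpd1, at S1pr1, at Pax5 and Zcchc7, and at Swap70 and Wee1 held 7. S1pr1 is the receptor by which lymphocytes leave tissue, and Swap70 and Pim1 act in activated B cells.

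The immunoglobulin loci, which B cells rearrange to make antibody chains, differed among themselves. The kappa locus (chromosome 6, 67555497 to 70726966) had 29 B cell regions and no solid organ region. The B cell sets had 282, 171, 378, 294 and 198 open regions there, and the other sets had 26 to 118. The heavy chain locus (chromosome 12, 113254830 to 116010093) had 2 B cell regions, with 120, 68, 192, 140 and 81 open regions in the B cell sets and 32 to 107 elsewhere. B6xC3H and B6xSPRET B cells lay inside the range of the other organs at the heavy chain locus, and all B cell sets lay above it at the kappa locus. The lambda locus (chromosome 16, 19061618 to 19260859) had 3, with 19, 16, 47, 45 and 18 open regions against 5 to 12. These loci hold families of near-identical genes, and rearrangement deletes part of them in B cells, so counts there are less certain than at other genes.

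Among all deposited hotspots, solid organ regions outnumbered B cell regions, at 8329 against 2433, but the B cell sets held fewer hotspots on average (112014 against 216629). This order reversed with the 75000 highest-scoring hotspots of each set, at 2151 solid organ against 9486 B cell regions. Solid organ regions then lay in or near 7.41% of genes and B cell regions in or near 22.9%. The counts that follow here use all deposited hotspots. A solid organ region lay in or within 10 kb of 4361 genes (21.0%), and 391 lay at the starts of 399 genes (1.92%; a region can lie at more than 1 start). After Gm20388 (39) and Fgfr2 (19), the genes with the most were Arhgap26 (15, a RhoGAP), Magi1 (11, a junction scaffold), Rora (11, a nuclear receptor), Zfhx3 (11, a homeobox factor), Dlc1 (10, a RhoGAP), Tgfbr3 (10, a TGF-beta coreceptor), and Gm42906, Itpr1, Prkce and Rad51b with 9. Rbfox2, Tspan9 and Wwc1 tied with the last of these. Magi1, Zfhx3, Dlc1 and Tgfbr3 had no B cell region, and Dlc1 had no region open in all 5 B cell sets among its 168.

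Among the lists, solid organ regions were found at 6 of 9 YAP and TEAD pathway genes, 5 of 8 endothelial genes, 5 of 10 epithelial genes and 3 of 6 megakaryocyte genes, beside 21.0% of all genes. Other lists were above that share too. They had 3 of 7 germinal centre and plasma cell, 4 of 10 hepatocyte, 3 of 8 stem and progenitor and 3 of 9 nephron genes. NK cell and stromal genes had 2 of 8 each. B cell surface receptors had 0 of 23, granulocyte and macrophage genes 0 of 14 and MHC class II genes 0 of 9. Tead1, a DNA-binding partner of YAP, had 5. The B cell sets had 8, 7, 13, 9 and 6 open regions at Tead1, and the other sets 24 to 62. Cdh1, which encodes the epithelial adhesion protein E-cadherin, had 4, and there the B cell sets had 4, 3, 7, 3 and 6 and the others 13 to 32. Mecom, a regulator of blood stem cells, had 6 and had 2 to 12 open regions in B cells against 47 to 135. The B cell sets held fewer hotspots on average (112014 against 216629). The share of all genes with such a gap is not given here. B lineage factor genes also had some solid organ regions, at 4 of 16: Bach2 3, Foxo1 2, and Tcf3 and Pou2f2 1 each. With 75000 hotspots per set the YAP and TEAD list had 3 of 9, the endothelial and epithelial lists 2 each and the megakaryocyte list 0, where 7.41% of all genes had a solid organ region.

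The regions were then chosen in 4 hybrids and looked up in the fifth, whose sets had not entered the choice. Of the B cell regions chosen without it, 98.9%, 65.4%, 99.8%, 98.7% and 60.9% had a hotspot in the fifth hybrid's B cell set, with the fifth hybrid taken in the order given above. The shares of all merged regions with a hotspot in these sets were 14.4%, 8.42%, 18.1%, 14.3% and 9.70%. The same regions were open in the fifth hybrid's lung set at 11.3%, 0.841%, 18.8%, 3.87% and 2.91%, in its liver set at 0.683% to 6.79% and in its kidney set at 0.496% to 1.58%. In every hybrid the B cell set was far above the others, and the lower shares were those of the B6xC3H and B6xSPRET sets. The regions had been chosen as open in B cells and closed in the organs of 4 hybrids. Of all 714403 regions, 236096 were open in 1 organ set only and 60275 in 1 B cell set only. A share above that of all regions thus follows in part from the choice, and these shares are a description without a test. Solid organ regions chosen in 4 hybrids were open in 88.2% to 99.9% in the fifth hybrid's organ sets and in 2.44%, 0.687%, 9.68%, 3.92% and 1.41% in its B cell set.

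**Figure D4:**
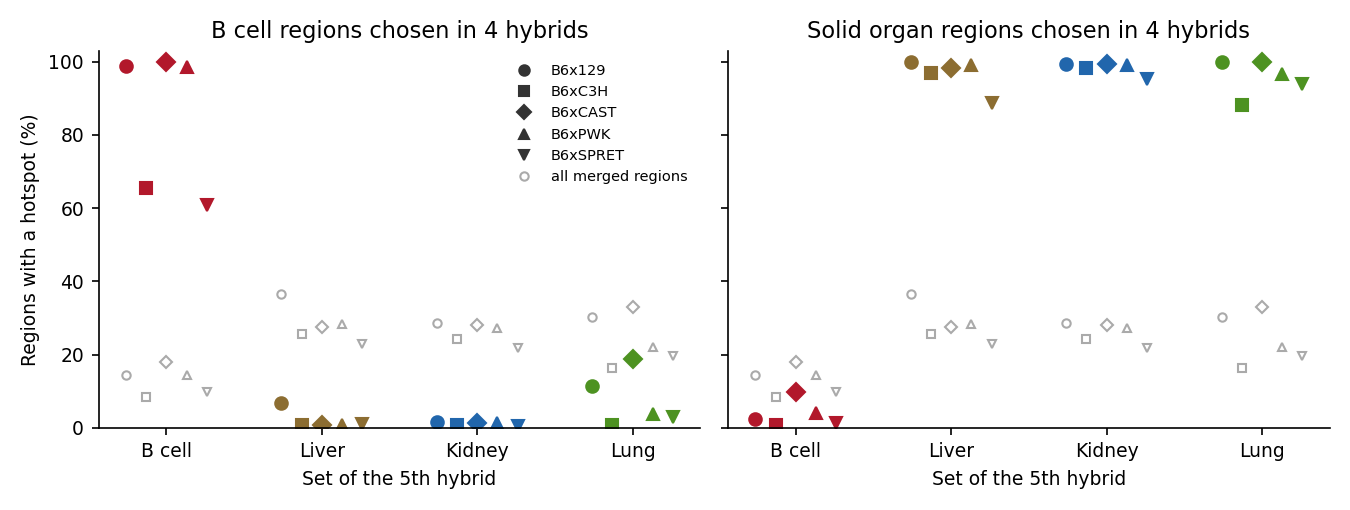
Percent of regions chosen in 4 hybrids that had a hotspot in each set of the fifth hybrid, for B cell regions (left) and solid organ regions (right). Filled symbols are the chosen regions, coloured by cell or tissue type, open grey symbols are all merged regions, and symbol shape gives the hybrid left out. The B cell sets are at 60.9% to 99.8% on the left and at 0.687% to 9.68% on the right.

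B cell and solid organ regions also differed in features the rule did not use. B cell regions were a median of 512 bp wide (quartiles 389 and 677) and 34.6 kb from the nearest gene start, with 50.8% in introns, 44.0% between genes and 4.40% in exons. Solid organ regions were 928 bp wide and 37.6 kb away. Regions open in liver, kidney or lung alone were 424, 401 and 414 bp wide. Mouse embryonic stem cells, which belong to neither side, were B6xCAST by their labels. In them, 81 B cell regions (3.33%, 95% Wilson interval 2.69% to 4.12%) had a DNase hotspot, against 22.1% (21.3% to 23.0%) of solid organ regions and 89.0% of regions of every set. A CTCF site from the stem cells lay in 54 B cell regions (2.22%, 1.71% to 2.89%), 12.1% (11.4% to 12.8%) of solid organ regions and 67.2% of regions of every set. Regions open in liver, kidney or lung alone had low shares too, 2.37%, 4.41% and 4.11% with a stem cell DNase hotspot and 1.96%, 1.65% and 1.31% with a CTCF site. The intervals cover counting error only, and regions of different width have different chances to overlap. Merging over 20 sets widens regions open in many sets.

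The sequences of whole hotspot sets were compared next, which asks whether B cell open chromatin carries other motifs, and every hotspot counted, also those shared with other organs. The share of hotspots with a motif in the central 200 bp was computed for each set, and the B cell set was compared with the mean of the other 3 of its hybrid by a two-sided exact permutation test within hybrids. There are 1024 arrangements, so the smallest p is 0.000977 and the smallest adjusted p over 21 motifs was 0.00171. Of the motifs, 20 (95.2%) differed at an adjusted p under 0.05, 12 higher and 8 lower in B cells, so a call alone says little, and sizes matter more.

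The largest ratio among motifs higher in B cells was that of PU.1 (GAGGAAGT), the ETS factor of myeloid and B cells. It was in 5.72%, 6.15%, 6.18%, 6.04% and 5.52% of B cell hotspots (mean 5.92% ± 0.290, SD, n = 5) and in 1.84% to 3.88% of those of the other sets (mean 2.63%). The lung sets, at 3.52% ± 0.270, lay above liver and kidney, at 2.19% and 2.17%. The octamer (ATGCAAAT) was in 2.11%, 2.39%, 2.41%, 2.16% and 2.02% of B cell hotspots and in 0.925% to 1.32% of the others. Neither motif overlapped between B cells and the other organs, and both differed at the smallest p of the exact test.

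EBF1 matches (CCCNNGGGA) were in 4.67% ± 0.306 of B cell hotspots and 3.49% ± 0.455 of the others, a smaller difference with no overlap (4.30% to 5.10% against 2.85% to 4.13%). The ETS-IRF composite (GGAANNGAA), bound by PU.1 or SPI-B with IRF4 or IRF8, was in 8.86% ± 0.373 against 6.64%. RUNX (TGTGGTT) was in 7.14% against 5.19%, IRF (GAAANNGAA) in 7.75% against 6.33%, ETS (CCGGAAGT) in 1.01% against 0.605%, and the E-box CAGGTG in 17.2% against 15%. All of these had the smallest adjusted p, 0.00171, and were higher in B cells in 5 of 5 hybrids. The ranges still overlapped for ETS (lowest B cell set 0.771%, highest other set 0.835%) and for CAGGTG (16.2% and 16.5%). The ETS difference of 0.408 points was 0.198 points when only hotspots over 1 kb from gene starts were counted. It was 0.259 points with 75000 hotspots per set. The E-box CAGCTG, also bound by E proteins, was lower in B cells (12.9% against 15.2%, adjusted p = 0.0193, exact permutation test), so the 2 E-boxes went opposite ways. CTCF, the insulator factor, was in 5.25% ± 1.12 of B cell hotspots against 2.89%, and more so in the B cell sets with fewer hotspots (6.55% in B6xC3H and 6.26% in B6xSPRET, 4.06% in B6xCAST). The CTCF difference of 2.36 points was 1.20 points with 75000 hotspots per set (6.90% against 5.70%, adjusted p = 0.00615, exact permutation test). PAX5 (GCGTGAC) was the called motif nearest to the threshold, at 0.839% ± 0.142 against 0.707% ± 0.100 (adjusted p = 0.0441, exact permutation test). Its call was lost with 75000 hotspots per set (0.953% against 0.930%, adjusted p = 0.703, exact permutation test). It was also lost when only hotspots over 1 kb from gene starts were counted or any hybrid was left out. With a hybrid left out the test has fewer arrangements, so a call is harder to reach.

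Motifs of organ factors were lower. TEAD (ACATTCCA) was in 0.603%, 0.588%, 0.620%, 0.684% and 0.609% of B cell hotspots and in 1.01% to 1.91% of the others. FOX (TGTTTAC) was in 2.60% ± 0.136 against 4.32%, and C/EBP (ATTGCNNAA) in 1.61% ± 0.156 against 2.99%. These 3 had adjusted p = 0.00171 in the exact permutation test and were lower in B cells in 5 of 5 hybrids. HNF4 (CAAAGTCCA), a factor of liver, kidney and gut, was in 0.243% of B cell hotspots against 1.19% in liver and 1.27% in kidney, while lung at 0.293% was close to B cells. HNF1 (GTTAATNAT) was in 0.351% against 1.09%, AP-1 (TGANTCA) in 6.61% against 8.31% and AGATAAG, the motif of GATA factors, in 2.16% against 2.77%, with adjusted p from 0.0147 to 0.0228. HNF1 in lung (0.480%) and GATA in kidney (2.20%) were near B cells. The ranges of HNF1, AP-1 and GATA overlapped between the B cell sets and the other sets. NF-kB (GGGANTTTC, 0.908% against 0.810%, adjusted p = 0.0238, exact permutation test) and the GC box GGGGCGGGG (2.67% against 1.90%, adjusted p = 0.00631) were slightly higher in B cells. At 75000 hotspots per set, the GC box (3.18% against 3.11%, adjusted p = 0.82), AP-1 (adjusted p = 0.0519) and the GATA motif (adjusted p = 0.0729, all exact permutation tests) lost their calls. NF-kB lost its own whichever hybrid was left out, where the test has fewer arrangements. MEF2 (CTATTTNTA) was not called, at 1.07% ± 0.156 against 1.12% ± 0.142.

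**Figure D5:**
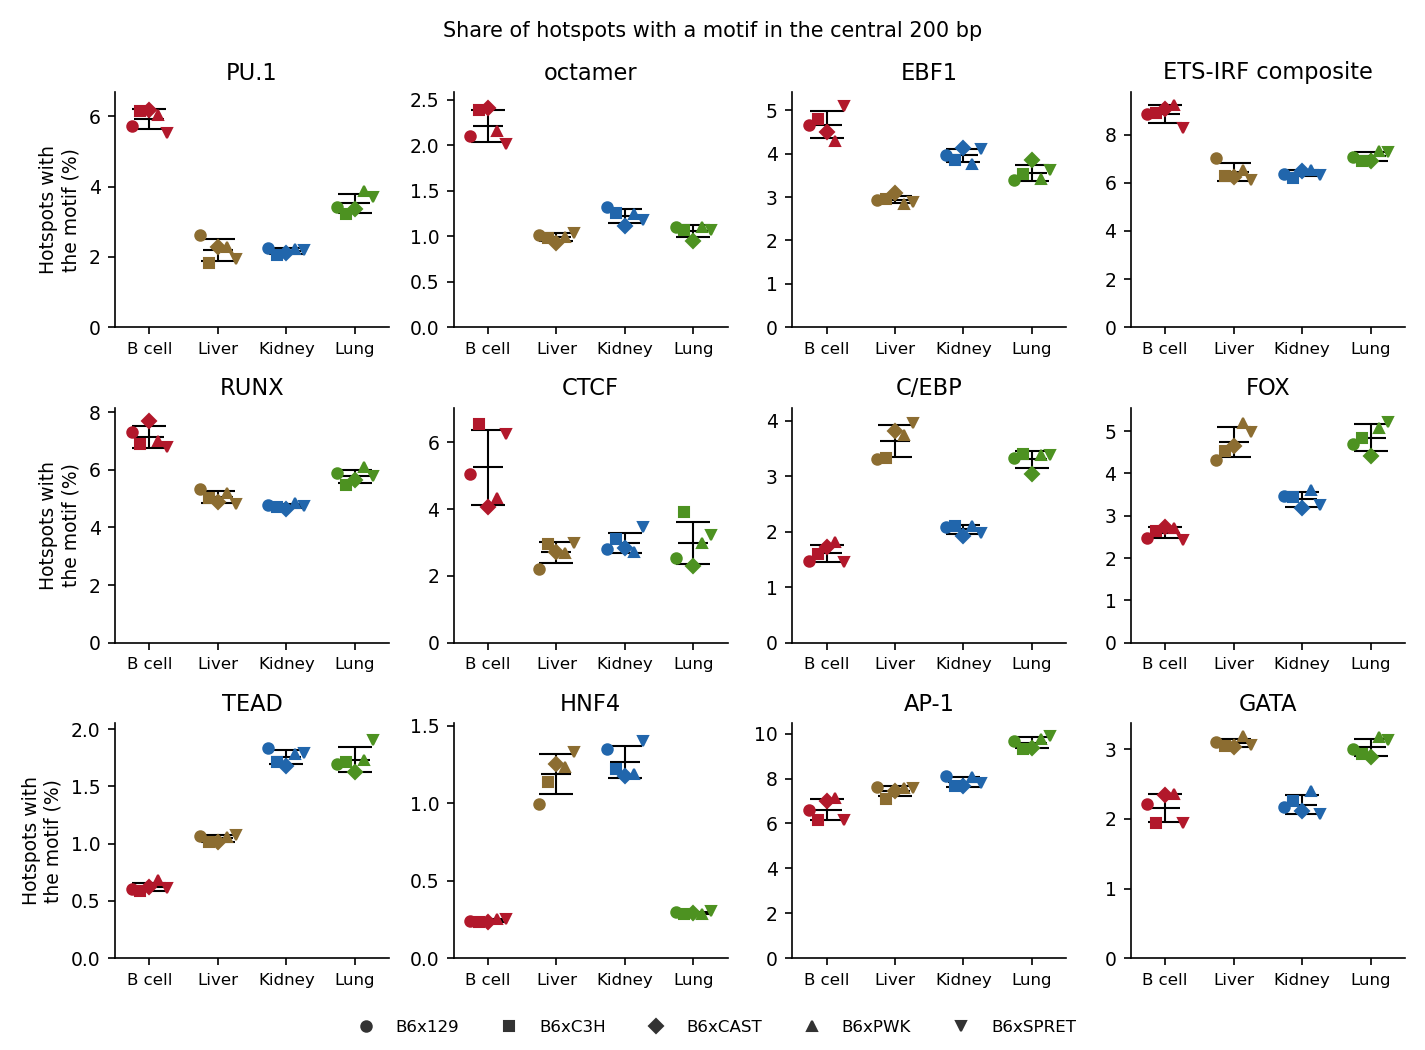
Percent of hotspots with a motif in the central 200 bp, 1 point per hotspot set, by cell or tissue type (colour) and hybrid (shape). Bars are the mean and SD of the 5 hybrids, and each axis starts at 0. PU.1, octamer, EBF1, ETS-IRF composite, RUNX and CTCF are higher in all 5 B cell sets than in any other set, and TEAD, FOX, C/EBP and HNF4 lower.

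In the B cell regions, chosen by where they were open and not by sequence, the same motifs were counted as a description. EBF1 matches were in 8.55% of them, 3.60% of solid organ regions and 3.08% of all regions. PU.1 was in 10.2%, 1.72% and 2.51%, and the octamer in 6.99%, 0.828% and 1.37%. The ETS-IRF composite was in 11.6%, 6.06% and 6.71%. Regions that B cells shared with lung only had about as much PU.1 (10.8%) and composite (11%) as B cell regions, but less EBF1 (5.89%) and octamer (4.12%). CTCF was in 2 B cell regions (0.0822%), against 0.859% of all regions and 10.2% of regions of every set. Regions open in liver, kidney or lung alone were as low, at 0.0822%, 0.124% and 0.0372%. No motif of the 11 was found in 44.9% of B cell regions and 65.1% of all regions.

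Hotspots at gene starts took up more of the B cell sets. Their share was 12.7%, 18.5%, 9.93%, 12.9% and 16.1% in B cells (mean 14% ± 3.33, SD, n = 5) and 6.04% to 12.8% in the other sets (mean 8.72%), and it was higher in B cells in 5 of 5 hybrids. The difference of 5.30 percentage points had p = 0.000977 (exact permutation test within hybrids, two-sided), the smallest the test can give. With 75000 hotspots per set, the shares were 16.1% and 15%, a difference of 1.09 points (p = 0.122, exact permutation test, 4 of 5 hybrids), so the call depended on the number of hotspots. The GC content of the central 200 bp was 49.7% and 49.2% (p = 0.355, exact permutation test), a difference of 0.573 points.

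RNA-seq of 17 samples, 5 of them B cells, did not enter the choice of regions, but its counts are few and of doubtful strand. By their labels, the samples were B6xC3H, B6xPWK and B6xSPRET, with 1 B cell sample of B6xCAST and none of B6x129. The depth was 283725 to 809337 counts per sample, the gene with most counts was Gm26825, Gm17300 or Gm37376 in the B cell, kidney and lung samples, and Alb (albumin, a main product of liver) had only 95 to 767 counts in liver. Of the genes tested, all of which had passed a filter on low counts, 62.5% lay opposite a protein-coding gene on the other strand. The share was 17.8% for all genes, which were not filtered. The library kit keeps the strand. Whether many counts come from the strand opposite to the gene named was not tested. They are thus given here as counts and not as expression of that gene. Of 4479 genes tested with edgeR's quasi-likelihood test, 1468 (32.8%) were higher and 1349 (30.1%) lower in B cells at an adjusted p under 0.05. Of the 3 marker genes, Cd79a had 19, 11, 9, 12 and 4 counts in the B cell samples, 2 to 4 in lung and 0 or 1 elsewhere, Pax5 had 1 to 6 in B cells and 0 in all other samples, and Ebf1 had 13 to 24 in B cells, 0 to 7 in lung and 0 or 1 elsewhere. Only Ebf1 of these passed the filter on low counts, with an adjusted p of 5.24e-06. Of the 12 genes with most B cell regions, Ebf1, Ets1 and Fchsd2 were tested, and 1 of them lay opposite a protein-coding gene. Ets1 had 45, 39, 54, 46 and 27 counts in B cells and 0 to 22 elsewhere (log2 fold change 2.42, SE 0.353, adjusted p = 2.42e-06). Fchsd2 had 44 to 113 counts in B cells against 0 to 36 (log2 fold change 2.57, SE 0.246, adjusted p = 4.06e-09). Of the 23 genes of the surface receptor list, Fcrl1, Fcer2a and Cd38 were higher, Cr2 was lower and Cd72 was not called, and the other 18 were not tested. Of the 12 genes named for a B cell region at the start, only Plekhb1 was tested, and it was not called (log2 fold change 0.38, SE 0.248, adjusted p = 0.19).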

How the data were processed

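DNase-seq was measured in 67 samples of liver, kidney, lung and marrow B cells of 5 F1 hybrids. RNA-seq was measured in 17 samples of the same tissues, none of them labelled B6x129. For DNase-seq, the authors trimmed reads with Trimmomatic, mapped them to mm10 with BWA, pooled the samples of 1 tissue of 1 hybrid, and ran hotspot2 on each pool with an FDR limit of 5%. In the deposited hotspot tables a hotspot has coordinates and a score, the −log10 of its FDR, and no score exceeds 100. As the score grows with depth, it was used only as a rank within a set. The tables hold no number of reads, and hotspots per set are not a measure of depth. The paper lists analysed reads per set, which differ between sets and were not used here. For RNA-seq, the authors counted reads with STAR and RSEM, and the deposited tables give the expected count of each gene, not normalized.

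From these files, hotspots on the 19 autosomes were merged across sets where they shared at least 1 bp, and genes were taken from GENCODE vM21, with a gene's surroundings set at 10 kb on either side and its start at 1 kb on either side. Motifs were counted as consensus matches on both strands of the GRCm38 sequence in the 200 bp around a centre. Shares per set were compared by the exact permutation test within hybrids, with Benjamini-Hochberg adjustment over the 21 motifs, and hybrids were the replicates. The RNA expected counts, rounded to whole numbers, entered the edgeR quasi-likelihood test (TMM, filterByExpr, Benjamini-Hochberg threshold 0.05, B cells against the mean of the other 3 tissues, which share 1 estimate of the spread), and 51464 of 53715 genes had a symbol. The RNA samples are separate samples by their labels, and p-values measure the spread between them. The hybrid of 1 B cell RNA sample differs between sources, so hybrid was used there only in an alternative without that sample. The scripts were tested on simulated data.

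The members, lists, motifs and alternatives were chosen with earlier results of these data known. Named were the genes of the B cell lists, the 12 genes with most B cell and with most solid organ regions, the 12 with a B cell region at the start of highest lowest rank, and the 10 windows of 500 kb with most. A comparison of list genes with 75000 hotspots per set, leaving out organ RNA samples and hybrid as a block in the RNA test were added after the data had been seen. Other alternatives were FDR 1%, other overlap and distance rules, other windows, no hybrid block, leaving out each hybrid or sample, no count filter and DESeq2. Allelic counts were not analysed here. Some genes of the lists are counted but not reported here by name. Python 3.11.15, numpy 2.4.6, pandas 2.3.3, scipy 1.17.1, R 4.3.3, edgeR 4.0.16 and DESeq2 1.42.0 were used.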

Additional observations from a re-analysis of the deposited data

How the results depend on the processing

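The number of hotspots per set had the largest effect. With the 75000 highest-scoring of each set, 9486 B cell and 2151 solid organ regions were found, 4758 genes had a B cell region, and the difference in the share at gene starts was 1.09 points (p = 0.122, exact permutation test), which was no longer called. PAX5, the GC box, AP-1 and GATA also lost their calls there, and MEF2, never called, changed sign (0.0361 points). Leaving out each hybrid gave 2659 to 4232 B cell regions (3807 without B6xC3H and 4232 without B6xSPRET), 8755 to 10592 solid organ regions, 1683 to 2413 genes, 4.44 to 6.09 points at gene starts, 10 motifs higher and 7 or 8 lower, and MEF2 at -0.134 to 0.00629 points, where the sign again changed without B6xSPRET. NF-kB and PAX5 lost their calls whichever hybrid was left out, GATA without B6xC3H or B6xSPRET and the E-box CAGCTG without B6xCAST. The smallest p that the exact permutation test can give is then 0.00391, against 0.000977 with all 5 hybrids. A lost call can thus come from the coarser test alone. Leaving out 1 RNA sample gave 1301 to 1665 genes higher and 1282 to 1517 lower, and no filter on counts gave 3140 and 2186. At FDR 1% there were 2519 B cell and 7338 solid organ regions, and with no opposing hotspot within 500 bp 1685 and 7646. The added count of list genes at 75000 hotspots moved from 8 to 14 for B lineage factors, 3 to 16 for surface receptors, 6 to 14 for signalling, 2 to 7 for MHC class II, 1 to 5 for T cells, 2 to 4 for granulocytes and macrophages, 0 to 3 for endothelial and 0 to 2 for erythroid cells, 1 to 2 for the epithelial, lung and YAP and TEAD lists, and 0 to 1 for the pre-B cell receptor, stem and progenitor and stromal lists. The labels number no replicates that could pair samples, but hybrids were the blocks in the tests of hotspot sets. With hybrid as a block in the RNA test, 16 samples without the one of doubtful hybrid gave 1323 genes higher and 1294 lower. Other causes of the shifts were not tested.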
